A study of Patiria miniata with 6 samples.

Results

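Numbered zinc finger genes of the bat star Patiria miniata were followed in hatched blastulae raised from zygotes injected with a morpholino against the T-box factor Pm-Tbr or with a standard control morpholino. A locus was included when every gene name it carries in the authors' table begins with Pm-Z, Pm-Znf or Pm-Zfp followed by a number. This gave 132 loci of the 27630 in that table and the 80165 counted. Their 70 distinct names comprised 57 of the Z form and 13 of the Znf form, with 0 of the Zfp form. A further 6 loci that carry such a name beside an unrelated one were left out.

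A zinc finger is a short protein fold held together by a zinc ion, and in the commonest kind, C2H2, cysteines and histidines bind the metal. Fingers arranged in a row can read a stretch of DNA, and many such proteins repress or activate genes, while others bind RNA or proteins. Families of these genes are large in animals, and most members are known only by a number. The Z names carry no stated function in the files, and the Znf names are those of human genes, so a role given here is one known in mammals or another named organism and not in the sea star.

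RNA sequencing libraries came from pools of embryos cultured at 15 °C after injection of either morpholino antisense oligonucleotide (MASO), a synthetic strand that pairs with an RNA, at 600 µM. The control MASO group had 3 libraries, taken at about 30 hours post fertilization, and the Pm-Tbr MASO group had 3, typically taken at 36 hours when those embryos hatched. Each difference below is therefore one of morpholino and of age, which cannot be told apart. Only embryos that carried the tracer and looked healthy were kept. Nothing states that the libraries of a group came from separate spawnings, so a p-value measures the spread between these libraries, which may be technical. Transcripts of Pm-Tbr itself were not analysed here and gave no check of the labels. In pooled whole embryos, fewer cells of a type and less RNA per cell cannot be told apart.

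The libraries held 17795136 to 28167566 counts assigned to loci, of which the zinc finger loci took 0.298% to 0.377%. Embryonic regulators fixed as a check of the stage label were expressed in all 6 libraries, while Pm-Erg, Pm-FoxQ2 and Pm-Six3 had no locus by that name alone. Several marker lists moved with the groups. For comparison, 14.1% of the single loci in the authors' table were higher without overlap of the groups and 16.7% lower. All 3 egg and yolk names were higher without overlap, with summed levels of 2870 to 5070 CPM (the counts-per-million scale, relative to each library's assigned counts after scaling) in controls and 8600 to 13700 CPM after Pm-Tbr MASO. Most of these egg and yolk sums was Pm-Ebr1, at 2690 to 4970 against 8230 to 13300 CPM. All 3 tektin names, for proteins of the ciliary axoneme, were lower without overlap, at 1840 to 1920 against 886 to 1160 CPM. Of the vegetal names 5 of 6 were lower without overlap (summed 1180 to 1350 against 584 to 953 CPM), as were 3 of 3 ectoderm names matched (936 to 1130 against 588 to 736 CPM) and 2 of 3 mesoderm names matched (601 to 771 against 526 to 599 CPM). The groups overlapped at the remaining names, Pm-Wnt8 of the vegetal list (90.3 to 119 against 83.0 to 224 CPM) and Pm-Ets1/2 of the mesoderm list (319 to 439 against 402 to 500 CPM). Of the hatching enzyme and astacin names 1 of 3 was higher without overlap (all 3 summed, 490 to 809 against 848 to 1310 CPM). Pm-Astacin4 in that sum went the other way, with overlap (168 to 395 against 75.0 to 220 CPM). Of the 2 adult immune families 1 was higher without overlap, the Toll-like receptors (both families summed, 767 to 854 against 809 to 1010 CPM). The part these lists play in the zinc finger results was not tested.

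At the adjusted p of 0.05 used throughout, 3 numbered zinc finger loci rose, 5 fell and 124 did not pass in the quasi-likelihood test of edgeR. Those that rose were Pm-Z146 and both loci of Pm-Z447. Those that fell were both loci of Pm-Z372, a locus of Pm-Z339, a locus that joins the names Pm-Z339, Pm-Z338 and Pm-Z193, and Pm-Znf503. The 8 calls are 6.06% of the family, beside 3.21% of the loci of the authors' table and 2.28% of all 44120 loci tested. The table loci are the fairer background, because a locus has a name only if it exceeded 2 CPM in at least 3 libraries. Of the 132 members 106 exceeded it in every library of both groups, 15 in every control but not every treated library, 6 in every treated but not every control library, and 5 in every library of neither group. Among the loci named below, those of the first such kind include Pm-Z372 on scaffold 1190, Pm-Znf462, a strandless Pm-Z96 locus and a strandless Pm-Z339 locus on scaffold 507. They also include Pm-Z481 on scaffold 1493, Pm-Z421 on scaffold 12084, Pm-Z185 on scaffold 18130 and a strandless Pm-Z185 locus on scaffold 5990. Those of the other kind include Pm-Z103, Pm-Z137, Pm-Z211 on scaffold 967 and a strandless Pm-Z339 locus on scaffold 1439. Such loci can enter the family through the group in which they are higher. By direction that background was 1.8% higher and 1.41% lower in the table loci, and 1.36% and 0.922% in all loci tested. The difference between these shares was not tested, since the family was chosen with earlier results known. The family's median log2 fold change was -0.05, against -0.03 over the table loci, and its median size was 0.56, against 0.44.

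**Figure D1:**
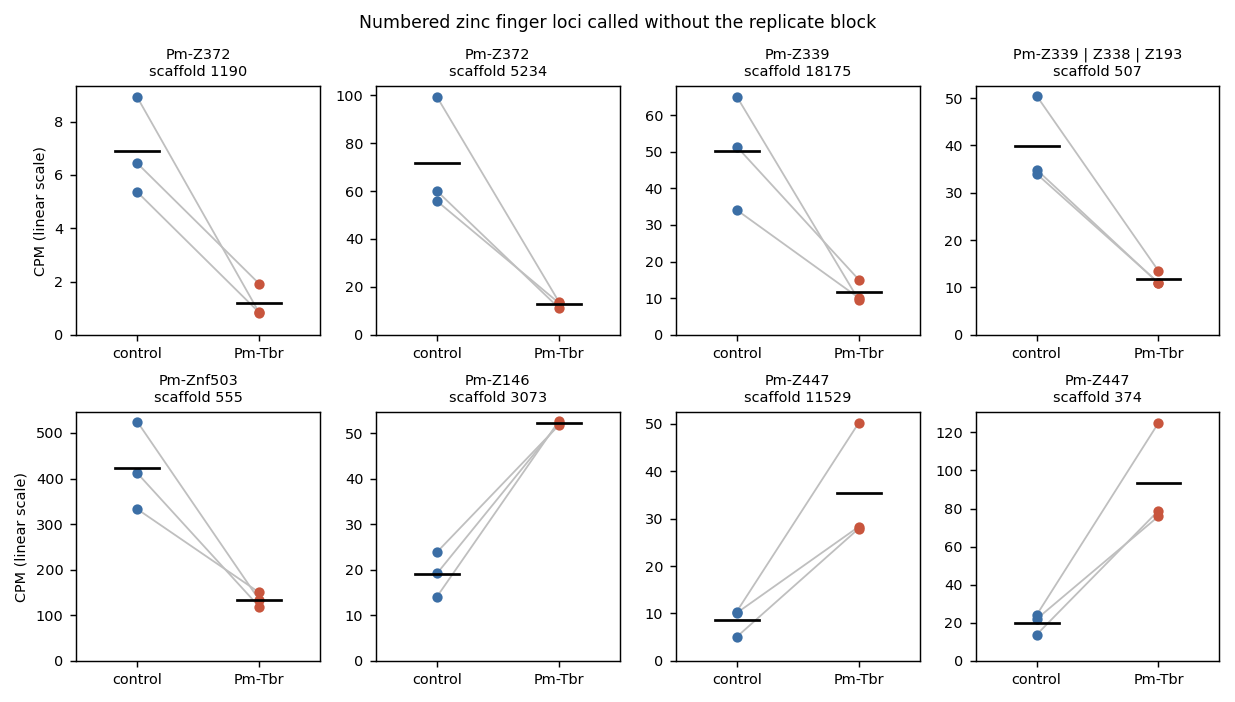
Levels in CPM (linear axis from 0, with its own range in each panel) of the 8 loci called without the replicate block, in control and Pm-Tbr MASO libraries. Points are single libraries, grey lines join libraries of 1 replicate number, and black bars are means of 3; in each of the 8 panels the groups do not overlap, from Pm-Z372 on scaffold 1190 (1.2 against 6.91 CPM) to Pm-Z447 on scaffold 374 (93.3 against 19.9 CPM).

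Pm-Z372 fell at both of its loci, on different scaffolds. On scaffold 5234, from 20357 to 33845 on the minus strand, controls had 55.8, 99.3 and 60 CPM and Pm-Tbr MASO libraries 13.3, 13.8 and 11.2 CPM. Every control was far above the treated libraries, which lay close together. Its log2 fold change was -2.49 ± 0.29 (SE, n = 3 per group, edgeR adjusted p = 0.019), a level 5.6-fold lower. On scaffold 1190, from 60266 to 68445 on the plus strand, controls had 6.44, 8.92 and 5.36 CPM against 1.92, 0.836 and 0.839 CPM. All 3 treated libraries lay under the lowest control, with a log2 fold change of -2.54 ± 0.45 (edgeR adjusted p = 0.0352). This second locus met the CPM minimum in the control libraries only, the group in which it is higher.

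Pm-Znf503 fell 3.15-fold. In mammals and zebrafish ZNF503 is a transcriptional repressor of the NET family, active in the developing nervous system. Controls had 412, 333 and 525 CPM and Pm-Tbr MASO libraries 119, 150 and 134 CPM, at a locus on scaffold 555 from 61881 to 66418. The treated libraries lay close together and far below every control (log2 fold change -1.66 ± 0.24 SE, edgeR adjusted p = 0.0247). The other name of the developmental group, Pm-Znf462, was lower in all 3 treated libraries but did not pass. Human ZNF462 is a large nuclear protein needed for normal development. Controls scattered widely at 18.8, 2.24 and 6.32 CPM, against 0.583, 0.602 and 2.07 CPM. Control replicate 2 lay barely above the highest treated library, and the log2 fold change of -3.08 carried an SE of 0.84 (edgeR adjusted p = 0.0972).

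The Pm-Z339 falls came from scaffolds 18175 and 507. On scaffold 18175, from 701 to 4938, controls had 51.4, 65.1 and 34.1 CPM against 15.1, 9.53 and 10.1 CPM. The groups were well apart, with a log2 fold change of -2.12 ± 0.32 (SE, edgeR adjusted p = 0.0285). The locus on scaffold 507, from 6887 to 34464, spans several gene models named Pm-Z339, Pm-Z338 and Pm-Z193. It had 34.9, 50.5 and 34 CPM in controls and 10.9, 13.5 and 11 CPM after Pm-Tbr MASO (log2 fold change -1.75 ± 0.26 SE, edgeR adjusted p = 0.0256). A strandless Pm-Z339 locus lies inside it, from 10253 to 11685, with 22.9, 22 and 10.8 CPM in controls and 7, 1.71 and 3.07 CPM in treated libraries. With a log2 fold change of -2.25 ± 0.54 this locus missed the threshold (edgeR adjusted p = 0.0712, with the block 0.0174), and because reads of overlapping loci can be split between them, neither value is independent of the other.

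Both loci of Pm-Z447 rose. On scaffold 374, from 30122 to 83650, controls had 24, 21.9 and 13.7 CPM and Pm-Tbr MASO libraries 125, 75.9 and 78.9 CPM. Treated replicate 1 was the highest of the 6 libraries, and the lowest treated library was still well above every control. The log2 fold change was 2.23 ± 0.31 (SE, edgeR adjusted p = 0.0244), or 4.69-fold higher. On scaffold 11529, from 10844 to 31500, the levels were 10.4, 10.1 and 5.05 CPM in controls against 50.2, 28.3 and 27.9 CPM. The order of the libraries was similar, with replicate 1 of the treated group on top and replicate 3 of the controls lowest (log2 fold change 2.05 ± 0.38, edgeR adjusted p = 0.038).

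Pm-Z146, a single locus on scaffold 3073 from 28665 to 52381, rose 2.74-fold. Controls were spread over 23.9, 19.2 and 14.1 CPM, whereas the Pm-Tbr MASO libraries had 51.8, 52.2 and 52.7 CPM. Their SD was 0.412 CPM, against 4.94 CPM in controls. The log2 fold change was 1.45 ± 0.25 (SE, edgeR adjusted p = 0.0335).

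These calls rest on all 6 libraries. With the same loci tested, the same edgeR test called 0 members without control replicate 2, Pm-Tbr replicate 1 or Pm-Tbr replicate 2. At an unadjusted p under 0.05 these runs held 38, 37 and 40 members, and 49 with all 6 libraries. The share of all loci at that unadjusted p is not given here, so these counts describe the members only. Calls over all 44120 loci dropped as well, to 0%, 0.0317% and 0.315%, from 2.28% with all 6 libraries. The test called 1 member without control replicate 1 and 3 each without control replicate 3 and Pm-Tbr replicate 3 (0.474%, 0.347% and 1.09% of all loci). Pm-Z372 on scaffold 5234 was among these members every time, while none of the 8 loci changed direction in any of the runs.

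**Figure D2:**
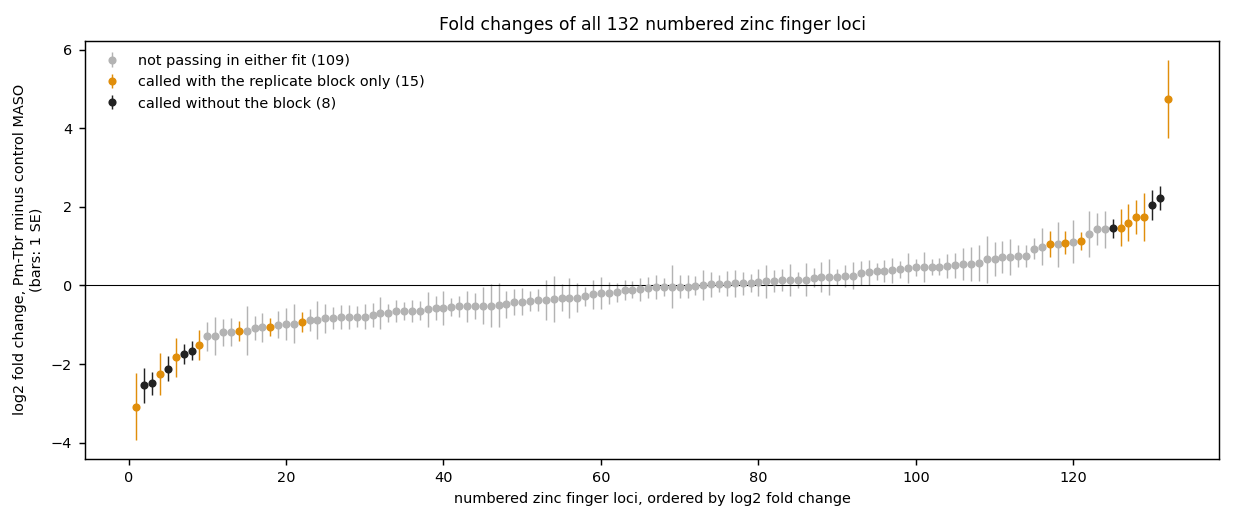
Log2 fold change (Pm-Tbr minus control MASO) with 1 SE for each of the 132 loci, ordered along the horizontal axis and coloured by the fit that called them. The 8 loci called without the block and the 15 called only with it lie mainly toward both ends, between -3.08 (Pm-Znf462) and 4.74 (Pm-Z211).

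Libraries that share a replicate number deviated together across all tested loci, so the comparison was repeated with the number as a block, which sets each treated library against the control of the same number. With the block 11 members rose, 12 fell and 109 did not pass. These 23 loci are 17.4% of the family, beside 13.1% of the table loci and 10.1% of all loci tested, and they include all 8 named above. By direction that background was 6.97% higher and 6.18% lower in the table loci, and 5.83% and 4.26% in all loci tested. Of the family, 39 loci were higher in all 3 same-number comparisons, 54 were lower in all 3, and 39 were mixed, or 29.5%, 40.9% and 29.5%. Of the table loci 26.0%, 30.3% and 43.8% fell into these classes. At 56 loci the groups did not overlap, 23 with the treated libraries above and 33 with them below, or 42.4% against 30.8% of the table loci (14.1% above and 16.7% below).

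**Figure D3:**
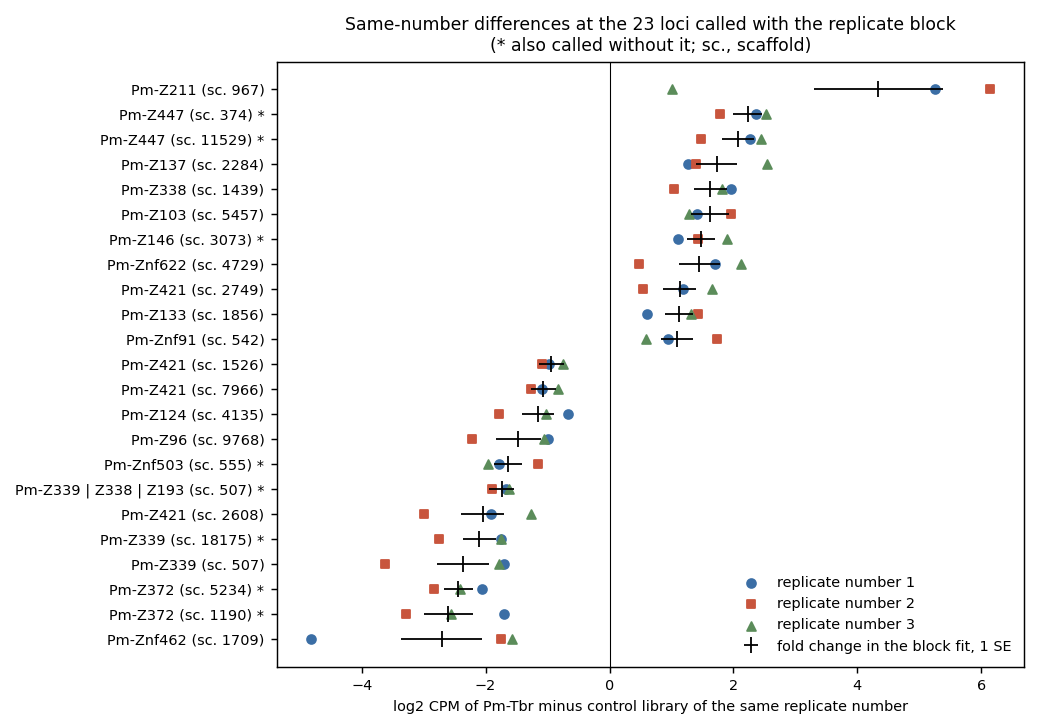
Difference in log2 CPM between the Pm-Tbr and control MASO library of each replicate number (coloured symbols) for the 23 loci called with the block, with the fold change of that fit and 1 SE in black. All 3 differences have 1 sign at each locus, and the symbols spread most at Pm-Z211 (1.01 to 6.15) and Pm-Znf462 (-4.82 to -1.57).

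The Z-numbered loci that rose with the block alone were Pm-Z133, Pm-Z137, Pm-Z103 and single loci of Pm-Z211, Pm-Z338 and Pm-Z421. Pm-Z133, on scaffold 1856 from 28982 to 65123, had 102, 88 and 78.2 CPM in controls and 154, 237 and 195 CPM in treated libraries. The groups were clearly separate, and the locus just missed the threshold without the block (log2 fold change 1.13 ± 0.23, edgeR adjusted p = 0.0508, with the block 0.0274). Pm-Z137 had 5.91, 3.64 and 1.55 CPM against 14.3, 9.66 and 9.45 CPM (log2 fold change 1.59, adjusted p = 0.116, with the block 0.0212). Pm-Z103 was low throughout, with 1.65, 2.5 and 0.874 CPM against 4.55, 9.93 and 2.24 CPM, and its groups overlapped. Within each replicate number the treated library of Pm-Z103 was the higher one, by 1.42, 1.96 and 1.28 on the log2 scale (block adjusted p = 0.0214).

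The largest fold change in the family belonged to a Pm-Z211 locus on scaffold 967, from 76411 to 80972. Controls had 1.11, 1.95 and 4.37 CPM, and the Pm-Tbr MASO libraries 45.4, 144 and 8.89 CPM. Treated replicate 3 lay closest to the controls and still above the highest of them, but the treated libraries differed far more among themselves than the controls did. The log2 fold change of 4.74 ± 1.0 missed the threshold (edgeR adjusted p = 0.0523) and passed with the block (0.0423), and these values moved with single libraries. Without the block and with 1 library left out, the log2 fold change ran from 3.45 (without Pm-Tbr replicate 2, adjusted p = 0.121) to 5.43, and the adjusted p from 0.0311 (without Pm-Tbr replicate 3) to 0.204. With the block it was 3.58 without replicate number 1 (adjusted p = 0.179), 3.08 without number 2 (0.0116) and 5.81 without number 3 (0.0104). The other 3 loci named Pm-Z211, at 0.68, -0.04 and 0.72, passed in neither fit.

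Falls seen with the block alone were Pm-Znf462, already described, Pm-Z124, Pm-Z96, the strandless Pm-Z339 locus and 3 loci of Pm-Z421. Pm-Z124 on scaffold 4135, from 28134 to 46529, had 58.4, 86.9 and 67.4 CPM in controls against 36.7, 25.3 and 33 CPM (log2 fold change -1.16 ± 0.25, edgeR adjusted p = 0.0545, with the block 0.0326). The second Pm-Z124 locus, on scaffold 768, had 40.2, 42.8 and 48.2 CPM against 45, 49.1 and 50.2 CPM, a log2 fold change of 0.14 that did not pass (adjusted p = 0.755), and it overlaps a locus named Pm-Sp5 and Pm-Prim1 on the other strand. Pm-Z96 has a strandless locus at 4.03, 7.45 and 4.01 CPM against 1.98, 1.54 and 1.9 CPM, called with the block (0.0451), which met the CPM minimum in the control libraries only. The adjoining piece of its gene model was lower by a similar amount (log2 fold change -1.18) and did not pass (block adjusted p = 0.063).

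Pm-Z421 stood at 9 loci that moved both ways. None of them passed edgeR without the block, where 4 had positive and 5 negative log2 fold changes between -1.83 and 1.43. In that fit 7 had an unadjusted p under 0.05, for which the share of all loci is not given. DESeq2 called 2 of these loci higher and 3 lower, and it called 9.32% of all loci tested (its share of the table loci is not given). With the block 3 fell and 1 rose. The fall on scaffold 2608 was from 32, 27.4 and 37 CPM to 8.46, 3.38 and 15.4 CPM (block log2 fold change -2.05 ± 0.35, adjusted p = 0.0156), at a locus that overlaps Pm-Bckdha on the other strand. The falls on scaffolds 7966 and 1526 were smaller, with log2 fold changes of -1.05 and -0.93. The locus on scaffold 2749 rose from 8.94, 12.2 and 6.48 CPM to 20.3, 17.9 and 20.7 CPM (block adjusted p = 0.042). Under the block calls in both directions were also seen for Pm-Z338, if the locus that joins Pm-Z339, Pm-Z338 and Pm-Z193 is counted for each of its names. The Pm-Z421 locus with the highest fold change, on scaffold 835, had 6.83, 10.4 and 3.06 CPM in controls against 14.1, 14.1 and 26.3 CPM and passed in neither fit (log2 fold change 1.43, adjusted p = 0.144, with the block 0.0974). A Pm-Z421 locus on scaffold 5709 had 3.87, 4.92 and 20.2 CPM in controls against 27.8, 21.6 and 22.6 CPM. Control replicate 3 reached nearly the treated level there, and the locus was called without that library (log2 fold change 2.45, edgeR adjusted p = 0.0417) but not with it (1.31, adjusted p = 0.261). The most abundant Pm-Z421 locus in CPM, on scaffold 950, had 156, 163 and 235 CPM against 127, 139 and 109 CPM (log2 fold change -0.56, adjusted p = 0.229).

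Among the names tied to RNA, ribosomes and translation, 0 of 6 loci passed without the block and 1, at Pm-Znf622, rose with it. Without the block 3 of the 6 had an unadjusted p under 0.05 in edgeR, for which the share of all loci is not given. DESeq2, which called 9.32% of all loci tested (its share of the table loci is not given), called 3 of the 6 higher. These were both Pm-Znf622 loci and Pm-Znf598. Human ZNF622 matures the large ribosomal subunit in the cytoplasm. On scaffold 4729 Pm-Znf622 had 58.3, 47 and 22.1 CPM in controls and 192, 65.7 and 96.6 CPM in treated libraries (block log2 fold change 1.45 ± 0.33, adjusted p = 0.0349). Its second locus, on scaffold 25061, had 23.4, 21 and 16.1 CPM against 73.4, 25 and 65.4 CPM (block adjusted p = 0.0556). At both loci treated replicate 2 was the lowest of its group and lay just above the highest control. Pm-Znf598 is named for a human ubiquitin ligase that marks collided ribosomes. It had 44.4, 55.3 and 31 CPM against 98.9, 70.8 and 79.3 CPM, a log2 fold change of 0.93 that passed in neither fit (adjusted p = 0.11, with the block 0.0504). The authors' deposited table gives Pm-Znf598 a false discovery rate of 0.0487. Pm-Znf593, a relative of a yeast export factor of the large ribosomal subunit, had log2 fold changes of 0.04 and 0.10 at its loci. Pm-Znf830L, named for a human protein linked to splicing and DNA repair, had one of -0.19, and neither name passed.

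The remaining Znf names, Pm-Znf16, Pm-Znf91, Pm-Znf99, Pm-Znf208, Pm-Znf443, Pm-Znf578 and Pm-Znf836, are those of human proteins with many C2H2 fingers. None of their 13 loci passed edgeR without the block or DESeq2, and 1 rose with the block. Without it 2 had an unadjusted p under 0.05 in edgeR, for which the share of all loci is not given. Pm-Znf91 on scaffold 542 had 27.8, 26.4 and 52.5 CPM in controls and 53.7, 87.9 and 79 CPM in treated libraries (block log2 fold change 1.09 ± 0.26, adjusted p = 0.041). Treated replicate 1 exceeded control replicate 3 by little, and the locus overlaps a smaller Pm-Znf91 locus of the opposite strand with the same gene model and a log2 fold change of 1.05. The locus named both Pm-Znf91 and Pm-Z339, on scaffold 582, had 81.7, 112 and 166 CPM against 124, 193 and 136 CPM and overlapped between groups.

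Of the 109 loci that passed in neither fit, log2 fold changes ran from -1.29 to 1.43 with a median size of 0.48. At 34 of them (31.2%) the groups did not overlap. The 30.8% of the table loci includes loci that were called, so these shares are not alike. The share among uncalled table loci was not computed. Some names had several loci on the same side of 0 without a pass in either edgeR fit. All 4 loci of Pm-Z185 were negative, between -1.29 and -0.97, and those on scaffold 5990 belong to 1 gene model. The strandless locus there and the one on scaffold 18130 met the CPM minimum in every control but not every treated library. DESeq2 called Pm-Z185 lower on scaffold 13826 (adjusted p = 0.0243) and at the minus-strand locus of scaffold 5990 (0.0227). All 3 loci of Pm-Z347 lay between -0.88 and -0.80. All 4 loci of Pm-Z52 were positive, between 0.32 and 0.54, and those on scaffold 1272 overlap within 1 gene model. Pm-Z337 and Pm-Z36 were among the 5 loci with the highest CPM in controls, which also reflects transcript length. Pm-Z337 had 108, 180 and 215 CPM against 156, 183 and 206 CPM, and Pm-Z36 99.5, 146 and 150 CPM against 73.5, 129 and 102 CPM. Both overlapped between groups, with log2 fold changes of 0.12 ± 0.28 for Pm-Z337 and -0.38 ± 0.28 for Pm-Z36.

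**Figure D4:**
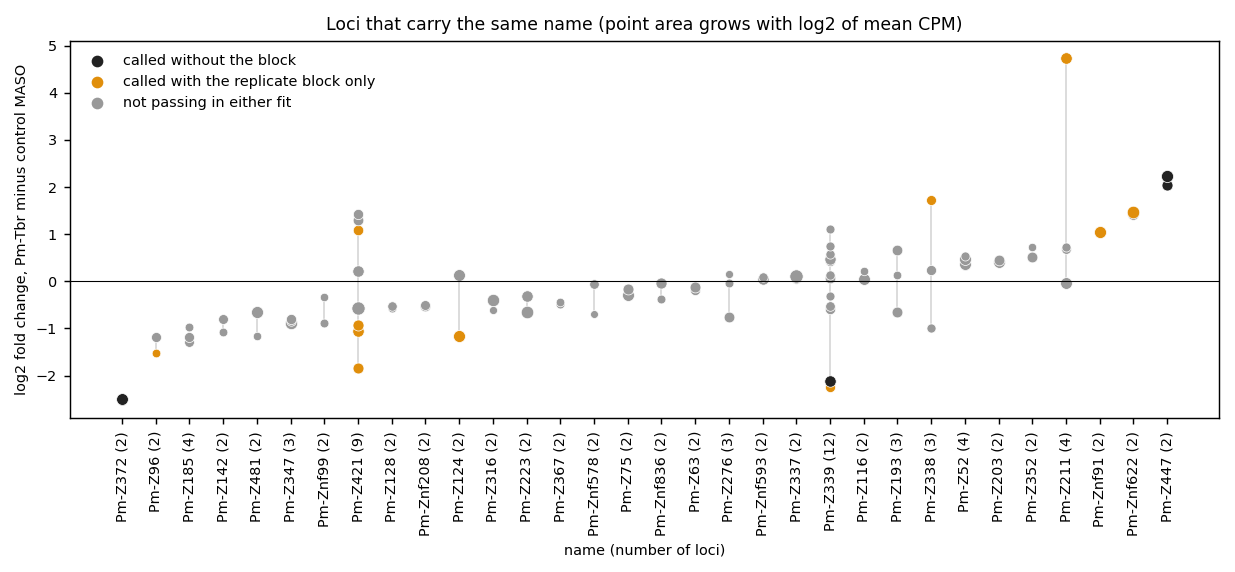
Log2 fold change (Pm-Tbr minus control MASO) of every locus, for the 32 names carried by 2 or more loci, ordered by their median; point area grows with the level and colour gives the fit that called the locus. Pm-Z372 and Pm-Z447 hold called points close together on opposite sides of 0, while Pm-Z421, Pm-Z339 and Pm-Z211 spread over more than 3 log2 units.

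Loci that share a name mostly had similar fold changes. Of the 32 names with 2 or more loci, 25 had all loci on 1 side of 0, and of the 23 names with 2 loci 22 did. In 9 of these 23 both loci belong to 1 gene model, and in the other 14 they lie on different scaffolds. Both were on 1 side of 0 in 13 of the 14 (92.9%), beside 85.7% of 2215 other names of that kind. Of those 14, 12 differed by no more than 0.5 on the log2 scale (85.7%), with a median difference of 0.09. Among 2215 other names in the table with 2 loci on different scaffolds 90.7% did, with a median of 0.13, so the closeness is not particular to the family. Reads aligned to several places stayed out of the counts, so near-identical copies rest on the reads that tell them apart. Such pairs may still not be independent measurements. The exceptions were Pm-Z124, described above, and Pm-Z481, with log2 fold changes of -1.15 and -0.65 at its loci. Pm-Z339, with 12 loci on 10 scaffolds, was the most dispersed by number, with 7 positive and 5 negative values from -2.25 to 1.11.

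The family was scattered over 107 scaffolds, and 22 of these held 2 or more members. The largest group was on scaffold 1439, where 5 loci lie between 23973 and 67679. Pm-Z193 there had a log2 fold change of -0.65 and did not pass. Its neighbour Pm-Z338, from 29957 to 33894, went from 4.26, 3.41 and 5.88 CPM to 16.9, 7.12 and 21 CPM and rose with the block (log2 fold change 1.73 without it, edgeR adjusted p = 0.0788, with the block 0.0149). The other 3 loci of the scaffold, at 1.11, 0.46 and 0.44, passed in neither fit, and 2 of them overlap on the same strand. Another Pm-Z338 locus, on scaffold 1985, had 9.24, 5.58 and 4.93 CPM in controls against 3.38, 4.45 and 2.12 CPM, the opposite sense, and passed in neither fit (log2 fold change -0.98).

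Several loci followed the replicate number more than the morpholino. Pm-Z55 had 10.5, 18.2 and 23.4 CPM in control replicates 1 to 3 and 10.6, 18.7 and 22.8 CPM in Pm-Tbr replicates 1 to 3. Same-number libraries thus differed by at most 0.04 on the log2 scale, while the libraries of a group differed over 2-fold. Pm-Z339 on scaffold 544 had 8.9, 12.5 and 4.45 CPM against 6.18, 9.53 and 2.24 CPM, and Pm-Znf836 on scaffold 4888 had 14.8, 19.2 and 37.1 CPM against 8.57, 21.1 and 39.8 CPM. At a low strandless locus of Pm-Znf99 replicate 2 was lowest in both groups, with 0.991 and 1.67 CPM. Across the 132 loci, deviations from the group means correlated at 0.329, 0.0941 and 0.312 for numbers 1, 2 and 3, and at -0.463 to 0.244 for unlike numbers. These points share library depth and overlapping loci and are given as a description. Pm-Z115, with 22.4, 32.2 and 22.6 CPM against 27.2, 24.2 and 25.4 CPM, had a log2 fold change of -0.01 ± 0.24, which does not show that it was unaffected.

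The better known C2H2 regulators were counted for comparison. Of 23 loci under 17 names, which include Klf, Sp, Gli, Glis and Osr factors, 0 rose, 2 fell and 21 did not pass (median log2 fold change -0.13). The share called was 8.7%, beside 6.06% of the numbered family and 3.21% of the table loci. Pm-Sp5, whose vertebrate counterpart is a Wnt target, fell from 291, 175 and 306 CPM to 70.2, 47.8 and 63.5 CPM (log2 fold change -2.09 ± 0.28 SE, edgeR adjusted p = 0.024). Pm-Ctcf, a chromatin insulator protein in vertebrates and flies, fell from 566, 461 and 442 CPM to 251, 169 and 219 CPM (-1.20 ± 0.23, adjusted p = 0.0401). With the block Pm-Egr and both loci of Pm-Klf11 rose and Pm-Blimp1 also fell, giving 3 each way. That is 26.1% of this list, beside 17.4% of the numbered family and 13.1% of the table loci. Of 66 loci named for other zinc-binding domains, 1 locus of Pm-Zmynd12 fell (1.52%) and 65 did not pass (median -0.01), and with the block 4 rose and 4 fell (12.1%).

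In the authors' deposited table, a total of 21 of the 132 loci have a false discovery rate below 0.05. With 11 of them higher and 10 lower, they are 15.9% of the family, beside 9.27% of the table (5.5% higher and 3.77% lower). Without a block, all 8 loci called by the edgeR test are among these. The table shares 20 loci with the block fit, which are 87.0% of the block's calls and 95.2% of the table's. Pm-Z103, Pm-Znf462 and the Pm-Z421 locus on scaffold 1526 were called with the block only, and Pm-Znf598 in the authors' deposited table only.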

How the data were processed

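For each of 6 libraries the authors deposited raw counts of reads by locus. They also deposited an edgeR table that lists log2 values (fold change and mean CPM), the F statistic as a score, p-values and false discovery rates. CASAVA 1.8, TopHat2 2.0.12, HTSeq 0.6.1p1, Cufflinks 2.2.1 and edgeR 3.10.5 are named per the submitters' processing notes. Build and strand setting: not given in the sources used here, so positions are in the authors' assembly and loci overlapping on opposite strands (20 members overlap a locus of another strand or of no strand) are uncertain. Sequences were not analysed here. Summary lines, 48.97% to 50.6% of each file and mostly reads aligned to several places, stayed out of the tests.

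Counts were filtered by filterByExpr, scaled by TMM and tested with the quasi-likelihood test of edgeR 4.0.16 in R 4.3.3, with group as the only term and Benjamini-Hochberg adjustment over 44120 loci. All 132 members were tested. Each SE was taken as the log2 fold change over the root of F. CPM uses TMM-scaled library sizes, is not corrected for length, and per-library log2 CPM has a prior count of 2. Libraries of a group differed by 33.6 to 47 chi-square units per degree of freedom, so none repeats another. Same-number libraries correlated at 0.531, 0.225 and 0.56 in their deviations over all loci, each over 0.1. The pairing thus comes from the counts and not from a label, and block results are printed where they change a call. Over the 132 members alone number 2 correlated at 0.0941, under 0.1 and under the 0.244 of control replicate 2 with Pm-Tbr replicate 1. The test was tried on simulated counts with known folds. These had a common spread for all loci and no effect of replicate number, so the trial cannot vouch for the calls made here.

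The members and lists were chosen with earlier results of these data known. Named loci were those passing either fit, the 5 highest in control CPM, the 3 largest same-number deviations, the 3 smallest changes at a mean of at least 10 CPM, and other loci of those names. Names of Pm-Z52, Pm-Z185, Pm-Z347 and Pm-Z481 were added after their values were seen.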

Additional observations from a re-analysis of the deposited data

How the results depend on the processing

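The members called, 3 higher and 5 lower, became 11 and 12 with the replicate block and 12 and 16 with DESeq2 1.42.0. Of all 44120 loci these fits called 2.28%, 10.1% and 9.32%. Of the table loci, the fairer background, edgeR called 3.21% without the block and 13.1% with it. The share of the table loci is not given for DESeq2 or the settings below. The member counts were 8 and 12 at an adjusted p of 0.1, where the share of all loci is not given. They were 5 and 7 with the filter of 2 CPM in 3 libraries (5.24% of the loci it kept). There were 5 higher when adjusted over the table loci, where neither the count lower nor the share of all loci is given. With loci of 1 name summed 2 and 3 names were called (2.13% of all entries tested). Other scalings, no filter (1.53% of all its loci called) and the added mixed-name loci kept the counts of 3 and 5 within 1.5 times. With 1 library left out there were 0 to 2 higher and 0 to 2 lower, beside 0% to 1.09% of all loci called. Filtered again without it, the counts were the same except that control replicate 1 then left 0. The median log2 fold change of -0.05 took values of -0.12, -0.11, -0.10, -0.09, -0.07, -0.06 and -0.05 with 1 library left out, and was -0.11 without a filter or with names summed and -0.02 with the stricter filter. The block counts, 11 and 12, became 3 and 5 without replicate number 1 (1.93% of all loci called) and 15 and 17 without number 2 (13.0%). They were 4 and 8 without number 3 (3.63%), and 7 and 4 with names summed (9.43%). The last 2 kinds of setting and the adjustment over table loci were chosen after seeing the data. The 8 loci called without the block kept their direction in every setting run. Pm-Z421 on scaffold 2749, higher with the block, gave -0.39 when the loci of that name were summed, a value of all 9 loci. Signs also turned at 4 named loci that passed in no fit with or without the block. With the block Pm-Z55 and Pm-Z115 were at 0.00 and 0.01, and with the stricter filter at 0.03 and 0.02. With 1 library left out, turned values ran from 0.02 to 0.27 for Pm-Z55 (0.03, 0.23, 0.24 and 0.26 between), from 0.03 to 0.19 for Pm-Z115 (0.17 between), from 0.01 to 0.44 for Pm-Znf836 on scaffold 4888 (0.02, 0.33 and 0.34 between) and from -0.13 to -0.12 for Pm-Z337. The cause of the changes was not tested beyond the smaller number of libraries. Counts were lowest at 10 in any library for any member, so low loci such as Pm-Z103 rest on few reads, and no Dixon test applied to groups of 3.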
